A study of Mus musculus with 12 samples.

Results

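The HoxB genes are the 8 rows of the deposited allelic expression table that carry the names Hoxb2 to Hoxb9, of 14899 genes in all. They lie side by side on the plus strand of mouse chromosome 11, from 96108894 to 96215328 in build mm9. Hoxb9 shares its row with the predicted gene Gm53 and the microRNA gene Mir196a-1, and the values of that row are values of all 3 names. Hoxb1 and Hoxb13, the outermost genes of the mouse cluster, were not analysed here. Polyadenylated RNA had been sequenced from hybrid cells whose genome has a 129Sv and a Cast/EiJ copy, so that reads over strain variants can be counted per allele. The groups were 4 neural progenitor (NPC) clones of the XX embryonic stem (ES) line F1-21.6 (clones 129, C2, G4 and E1.2), 4 NPC clones of the XY ES line F1-23 (clones mC3, mE6, mB4 and mG3), and the 2 ES lines themselves, with 1 library for each clone and line. Each set of clones came from 1 ES line, so a set has 1 genetic origin, and the ES lines were grown with leukaemia inhibitory factor on a layer of growth-arrested mouse embryonic fibroblasts.

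Hox genes encode homeodomain transcription factors that give cells their position along the head-to-tail axis. In vertebrates they sit in 4 clusters, in which the order of the genes follows the position of their anterior limit of expression, and genes at the Hoxb1 side are the most anterior and the first to be activated. In the embryo the HoxB cluster is used in the hindbrain and spinal cord and is absent from forebrain and midbrain. Retinoic acid induces the anterior genes, Polycomb complexes keep the cluster silent in ES cells and in anterior tissue, and Trithorax-type histone methyltransferases maintain its activity.

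The cluster also holds 2 microRNA genes, shown here because 1 of them is part of the Hoxb9 row. Mir196a-1 (hairpin at 96126478 to 96126579, mm9) lies inside that row, and Mir10a (96178479 to 96178588) lies between the rows of Hoxb5 and Hoxb4. Both hairpins have the same sequence in mm9 and in RefSeq, which gave the mature forms on build GRCm38.p6, with the seed (bases 2 to 8) in capitals.
miR-196a-5p: uAGGUAGUuucauguuguuggg
miR-10a-5p: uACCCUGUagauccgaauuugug
The 2 seeds differ, so the pair does not share a seed group. In mouse, miR-196a is known to direct cleavage of Hoxb8 RNA. The matching stretch of Hoxb8, read from mm9 at chr11:96146202-96146223 on the plus strand, follows with the bases opposite the seed in capitals.
Hoxb8 site: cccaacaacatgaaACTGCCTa
It pairs with miR-196a-5p at 21 of 22 bases by Watson-Crick rules, and the 1 mismatch lies opposite the seed. An exact match to the miR-196a-5p seed (ACTACCT, plus strand of the transcript) was present once in the annotated 3′ UTRs of Hoxb6 and Hoxb7 and in none of the other 6 genes, and 5.72% of 19915 genes with a 3′ UTR hold it. An exact match to the miR-10a-5p seed (ACAGGGT) was in none of the 8, against 11.18% of genes. Mature microRNAs were not measured in these libraries.

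RefSeq promoters were held for 2 of the 8 genes, Hoxb8 and Hoxb4. They are printed because both genes differed in level between the XX and XY clones. Each line gives the 250 bases before the start of transcription on GRCm38.p6, plus strand, with CG dinucleotides in capitals, at chr11:96281655-96281904 for Hoxb8 and chr11:96318017-96318266 for Hoxb4.
Hoxb8 promoter: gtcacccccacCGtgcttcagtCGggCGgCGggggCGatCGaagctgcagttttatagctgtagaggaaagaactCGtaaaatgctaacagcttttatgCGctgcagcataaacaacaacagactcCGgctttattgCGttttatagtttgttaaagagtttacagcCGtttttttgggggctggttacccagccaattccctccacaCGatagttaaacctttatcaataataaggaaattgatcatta
Hoxb4 promoter: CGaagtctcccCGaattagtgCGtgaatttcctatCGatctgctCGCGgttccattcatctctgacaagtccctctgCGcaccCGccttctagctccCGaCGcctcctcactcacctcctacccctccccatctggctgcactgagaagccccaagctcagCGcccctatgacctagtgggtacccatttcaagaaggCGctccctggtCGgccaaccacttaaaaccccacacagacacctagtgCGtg
They hold 12 and 14 CG, against a median of 6 over the 32851 promoters of the table, of which 68.5% and 72.7% hold as few or fewer. The motif TGATNNAT, which Pbx and Hox proteins bind together, was searched on both strands and was found in the Hoxb8 stretch and not in that of Hoxb4, and 7.7% of all promoters hold it. AGGTCA, the half-site of nuclear receptors such as those for retinoic acid, was in the Hoxb4 stretch and not in that of Hoxb8, and 14.0% of promoters hold it.

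Levels are given as counts, taken here to cover only what is informative for the allele, and as FPKM. In FPKM, fragments are divided by transcript length and sequencing depth, so that genes can be compared per length. Total counts ranged from 61375911 to 119266777 over the 10 libraries. The labelled cell types were checked with marker lists. The 17 neural progenitor markers in the table summed to between 4170 and 7080 FPKM in NPC clones and between 405 and 452 FPKM in ES lines, and the 5 pluripotency markers to between 2.59 and 5.49 FPKM in NPC clones and between 466 and 685 FPKM in ES lines. The library names of the XX NPC clones have another prefix than those of the XY NPC clones and ES lines, so ES line, sex chromosomes and library set cannot be told apart among NPC clones. Within the XX line, cell type and library set cannot be told apart for the same reason. Each clone enters with 1 library, so p-values measure the spread between clones of 1 line. The labels also mark a replicate of C2 and one of mC3, which were not used here. In bulk RNA, fewer cells of a type and less RNA per cell cannot be told apart.

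The first comparison asked whether XX and XY clones of the same labelled cell type have the same HoxB levels. All 8 HoxB rows had counts in each of the 4 XX clones and 0 counts in each of the 4 XY clones. Hoxb2, Hoxb3, Hoxb4, Hoxb7, Hoxb8 and the Hoxb9 row passed the test as higher in XX clones, and Hoxb5 and Hoxb6 did not (edgeR quasi-likelihood test, Benjamini-Hochberg adjusted over 13591 genes, threshold 0.05). Of all genes tested, 0.876% were called higher in XX clones and 0.412% lower. On log2(FPKM + 1) values limma called 105 genes higher and 270 lower, and all 8 HoxB rows were among those higher. A count of 0 over the 4 XY clones allows up to 0.00916 CPM (counts scaled to library size), taking 3 counts as the limit, and folds are given below as lower bounds against it.

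Hoxb2, Hoxb3 and Hoxb4 are the anterior genes. Hoxb2, which in the mouse hindbrain acts in the segment that forms the facial motor nerve, had 1071, 1520, 2238 and 3845 counts in the XX clones (129, C2, G4, E1.2 in turn), and 0 in every XY clone. In FPKM it stood at 11.2, 10.5, 16.8 and 24.0 in these XX clones and at 0 in the XY clones. The groups did not overlap, and the mean CPM was at least 2397-fold higher in XX clones (adjusted p = 0.0111).

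Hoxb3, expressed just behind it in the hindbrain, had 1021, 1054, 2214 and 2359 counts in the same order of XX clones and 0 in the XY clones. Its level was 7.26, 5.66, 12.4 and 11.7 FPKM in XX clones, and the least to most expressing clone differed by 2.13-fold in CPM, the smallest spread among the 8 rows. It was at least 1884-fold higher in XX clones, with the smallest adjusted p of the cluster (0.00927).

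Hoxb4, a gene of the posterior hindbrain that is also known for expanding blood stem cells, had 116, 132, 260 and 379 counts in XX clones and 0 in XY clones. Per length it was the lowest of the 8 in mean level, at 4.68 ± 1.75 FPKM in XX clones (SD, n = 4) and 0 in XY clones. It was at least 247-fold higher in XX clones (adjusted p = 0.0223).

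Hoxb5 and Hoxb6 lie in the middle of the cluster and are both known from the cervical and trunk levels of the embryo. Hoxb5 had 15, 12, 110 and 142 counts in the XX clones (129, C2, G4, E1.2 in turn), or 2.40, 1.25, 7.54 and 9.41 FPKM, and 0 counts in XY clones. Hoxb6 had 59, 22, 378 and 663 counts, or 9.51, 3.03, 33.1 and 51.1 FPKM, in XX clones and 0 counts in XY clones. For both, clones G4 and E1.2 were high and clones 129 and C2 low.

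Every XX clone was above every XY clone for the pair, but neither passed (adjusted p = 0.0683 for Hoxb5 and 0.0670 for Hoxb6). The lower bounds were 74.1-fold for Hoxb5 and 295-fold for Hoxb6. Their spread among XX clones was 10.4-fold and 26.5-fold in CPM, the widest of the cluster. DESeq2 and limma on log2 FPKM values called both. With no counts in XY clones, no alternative run could turn their direction. An antisense gene, 0610040B09Rik, overlaps the pair, and where counting ignores strand its reads cannot be told apart from theirs, as holds for Hoxb3os at Hoxb2 and Hoxb3 and for Gm11536 at Hoxb3.

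Hoxb7 and Hoxb8 are trunk genes, and Hoxb8 is also known from blood progenitors and microglia. Hoxb7 had 2815, 1553, 4456 and 6286 counts in the XX clones (129, C2, G4, E1.2 in turn), or 17.8, 7.48, 19.1 and 26.2 FPKM, and 0 counts in XY clones. Hoxb8 had 1239, 1332, 4662 and 4849 counts, or 19.4, 14.9, 49.6 and 51.6 FPKM, in XX clones and 0 counts in XY clones. Per length Hoxb8 was the highest of the 8 in mean level in XX clones, at 33.9 ± 19.4 FPKM (SD, n = 4).

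Hoxb7 was at least 4314-fold higher in XX clones (adjusted p = 0.0193) and Hoxb8 at least 3328-fold (adjusted p = 0.0223). The annotated transcripts of the pair overlap, so some counts could belong to either gene.

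Hoxb9, which patterns the thoracic skeleton, is the most posterior of the 8. Its joined row had 1350, 16813, 6829 and 6617 counts in the XX clones (129, C2, G4, E1.2 in turn), and 0 in every XY clone. In FPKM it stood at 8.10, 26.5, 16.1 and 20.1 in XX clones and between 0.00276 and 0.0192 in XY clones, the only HoxB row listed above 0 FPKM there. The groups did not overlap, and the row was at least 8639-fold higher in XX clones in CPM (adjusted p = 0.0351). In FPKM, listed above 0 in XY clones, the ratio of the means was smaller than this bound.

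The counts of the joined row are nearly those of a separate Gm53 row (1352, 16798, 6848 and 6633 in the same XX clones), so counts of Hoxb9 and Gm53 cannot be separated. FPKM of the Gm53 row was 0.0396, 2.07, 0.662 and 0.193 in those clones. CPM divided by FPKM was 2.47, 6.36, 4.31 and 2.91 for the joined row and 2.34, 2.08, 2.36 and 2.12 for Hoxb7. Clone C2 therefore leads the joined row more in counts than in FPKM.

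**Figure D1:**
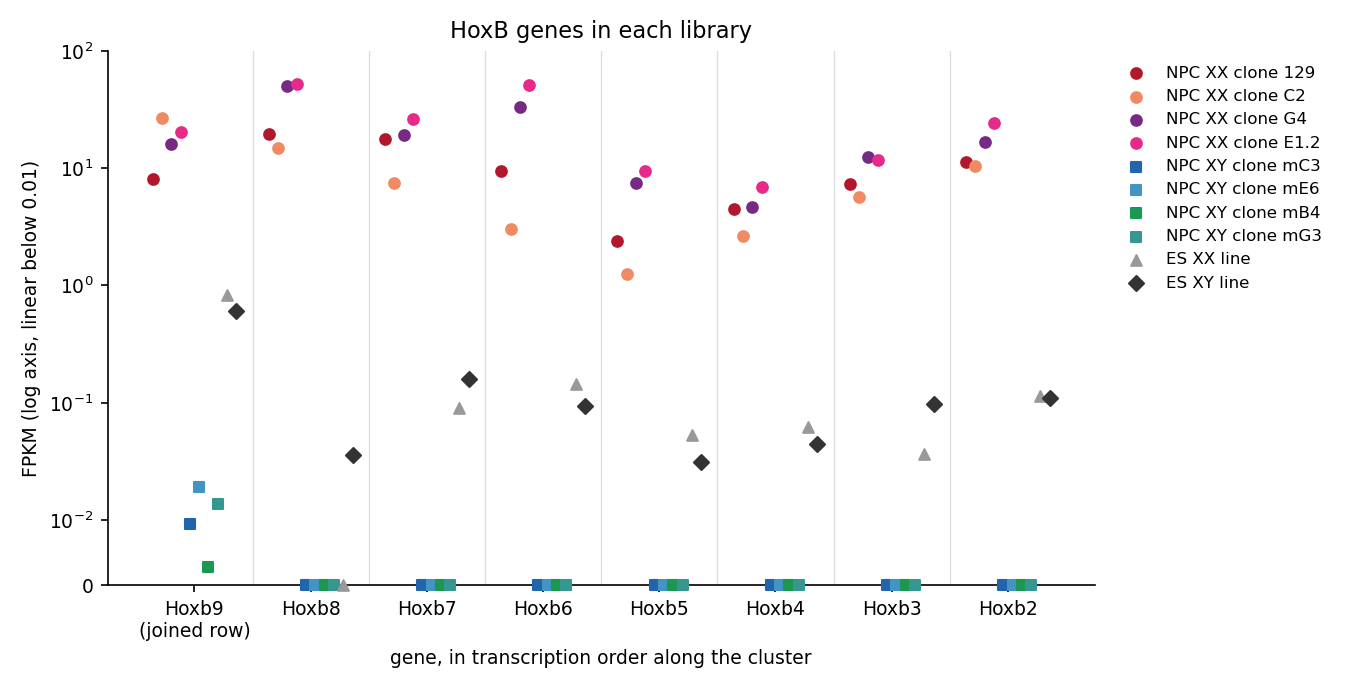
FPKM of each HoxB row (log axis, linear below 0.01) in each library, 1 point per library, with NPC clones left of ES lines and XX left of XY. XX clones lie between 1.25 and 51.6 FPKM, XY clones at 0 except for the Hoxb9 row (up to 0.0192), and ES lines at or below 0.821.

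The fitted log2 fold changes of XX over XY clones ran from 8.91 ± 1.59 (SE) for Hoxb5 to 15.77 ± 1.48 (SE) for the Hoxb9 row, and as the XY clones hold no counts these fitted values depend on the prior count. Across 15 alternatives all 8 were higher in XX clones each time, which the lack of counts in XY clones fixed in advance. Hoxb2 and Hoxb3 stayed called in 15. Hoxb7 was called in 14, Hoxb4 and Hoxb8 in 10, the Hoxb9 row in 9 and Hoxb5 and Hoxb6 in 4. The count of called HoxB rows was 2 without clone G4 and 3 without any 1 of the XY clones. Calls fell over the whole table in these runs. Of all genes, 0.102% were called higher without G4 and 0.0506% to 0.0725% without an XY clone, against 0.876% in the main fit.

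All 8 rows had every XX clone above every XY clone, a separation found in 7.83% of the genes of the table. Counts in all 4 XX clones with 0 in all 4 XY clones occurred in 26 genes, 0.175% of the table. The 8 HoxB rows and 6 genes of other Hox clusters (Hoxa9;Mir196b, Hoxa10, Hoxc5, Hoxc6, Hoxc8 and Hoxc10) were among them, with the Gm53 row that shares counts. The opposite pattern, counts in all XY clones and none in XX clones, was found in 0.0403% of genes. Every gene of the table reached at least 11 counts in some NPC clone, so genes silent in all NPC clones are absent. A gene at 0 in all XY clones can thus be in the table only through its counts in XX clones. The percentages are shares of this table and not of all mouse genes.

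The other Hox clusters were read in the same libraries. The summed level of the 8 HoxB rows was 80.1, 72.0, 159 and 201 FPKM in the XX clones (129, C2, G4, E1.2 in turn), and at most 0.0192 FPKM in an XY clone. The 9 HoxA genes summed to 41.8, 170, 169 and 119.1 FPKM in the same XX clones and to between 36.9 and 43.2 FPKM in XY clones. The 5 HoxC genes summed to 1.61, 14.95, 45.2 and 41.2 FPKM in XX clones and to 0 in XY clones.

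The 5 HoxD genes summed to between 12.2 and 20.9 FPKM in XX clones and between 7.36 and 15.3 FPKM in XY clones. XY clones thus had HoxA and HoxD transcripts with neither HoxB nor HoxC counts. Of 8 HoxA genes tested, 2 were called higher in XX clones: Hoxa6 (log2 fold change 4.61, adjusted p = 0.0366) and Hoxa10 (12.69, adjusted p = 0.0482), while the 1 HoxC and 3 HoxD genes tested were not called. Clone 129 was the lowest XX clone for summed HoxA and HoxC and near clone C2 for HoxB.

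**Figure D2:**
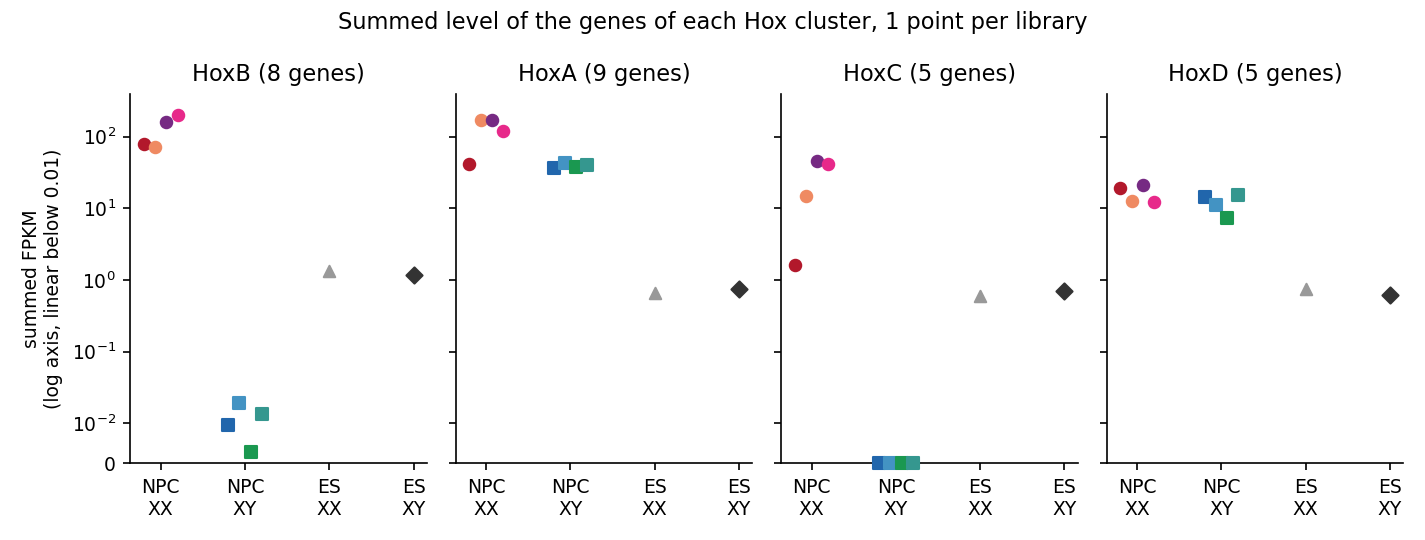
Summed FPKM of the genes of each Hox cluster (log axis, linear below 0.01), 1 point per library, with NPC clones left of ES lines and XX left of XY. HoxB and HoxC are at or below 0.0192 in XY clones, while HoxA and HoxD stand at 7.36 or above there.

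Genes flanking the cluster were compared in the same fit. Within 500000 bases outside the HoxB span lie 14 genes of the table, 8 on the Hoxb9 side and 6 on the Hoxb2 side, and none of the 13 tested differed between XX and XY clones (smallest adjusted p = 0.244, log2 fold changes from -0.34 to 0.88). The nearest on the Hoxb9 side were Atp5g1, a subunit of mitochondrial ATP synthase, Ube2z, a ubiquitin-conjugating enzyme, and Igf2bp1, an RNA-binding protein. Atp5g1 had a log2 fold change of 0.01 ± 0.19 (SE) and Ube2z one of -0.19 ± 0.09 (SE). Igf2bp1 was not tested, with 0 counts in the XX clones, 580 in mC3, 1754 in mG3 and 0 in the other two XY clones.

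On the Hoxb2 side the nearest were Skap1, a T cell adaptor (log2 fold change 0.44 ± 1.06, SE), Snx11, a sorting nexin (0.27 ± 0.16), and Cbx1, a heterochromatin protein (-0.34 ± 0.21). The distance from the outermost HoxB row to the nearest of these genes was 110577 bases for Skap1 and 171886 for Atp5g1.

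**Figure D3:**
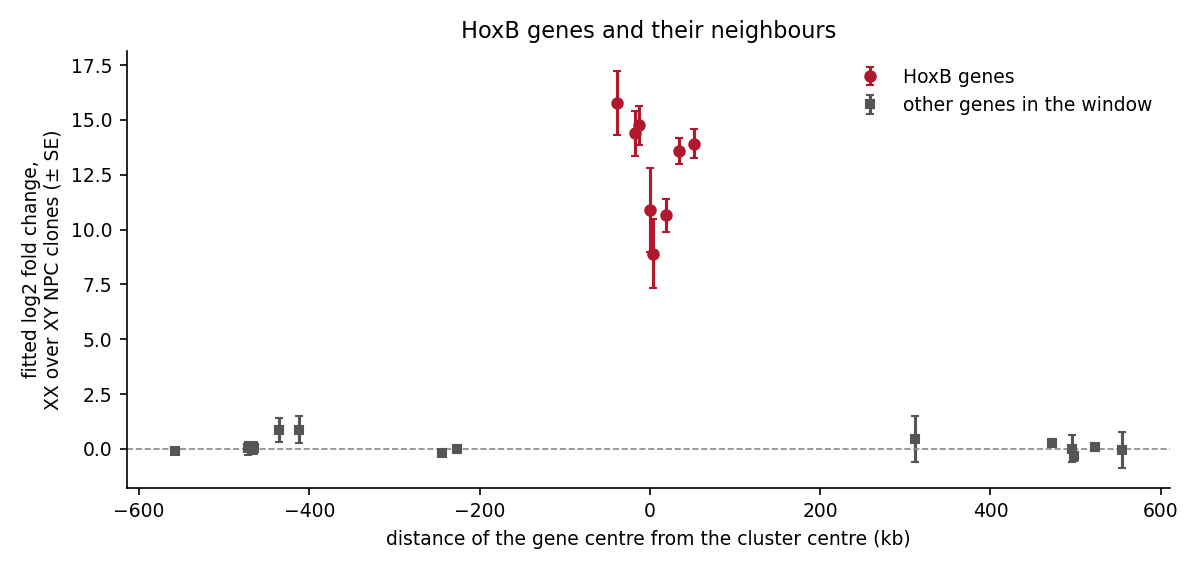
Fitted log2 fold change of XX over XY NPC clones (points, with bars of 1 SE) for the HoxB rows and for tested genes within 500000 bases, against distance from the centre of the cluster in kilobases. The SE is the absolute fold change divided by the square root of the test's F statistic. The Gm53 row, which overlaps the cluster, is not drawn. HoxB rows lie above 8, and neighbouring genes between -0.34 and 0.88.

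Marker sums of other cell types are given beside the XX and XY difference. The 11 fibroblast markers in the table summed to 72.4 FPKM in clone E1.2 and to between 35.5 and 43.3 FPKM in the other three XX clones, against 24.7 to 39.7 FPKM in XY clones. Their median log2 fold change of XX over XY clones was 1.65, against 0.0091 over all genes. For the 6 astrocyte markers this median was 1.69, and they summed to 112, 90.5, 176 and 296 FPKM in the XX clones (129, C2, G4, E1.2 in turn) and to between 141 and 273 FPKM in XY clones. The 5 endoderm markers summed to between 6 and 12.9 FPKM in XX clones and between 3.40 and 5.26 FPKM in XY clones, and the 6 mesoderm and neural crest markers to between 1.10 and 3.46 FPKM in XX clones and between 1.15 and 2.04 FPKM in XY clones. No gene of these 4 lists was called between XX and XY clones, 1 endoderm marker was at 0 counts in all XY clones, and the part of such cells in the HoxB difference was not tested. The endoderm sums did not overlap, but each of the 5 endoderm markers alone did in FPKM. Dab2 stood at 2.84, 6.07, 6.40 and 11.1 FPKM in the XX clones (129, C2, G4, E1.2 in turn). In XY clones it lay between 3.17 and 4.73 FPKM. Clone E1.2 had the highest fibroblast and astrocyte sums.

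The second comparison asked how HoxB levels of NPC clones stand to those of ES cells. In the XX ES line the counts of Hoxb2, Hoxb3, Hoxb4, Hoxb5, Hoxb6, Hoxb7, Hoxb8 and the Hoxb9 row were 8, 0, 3, 0, 6, 9, 0 and 245. The XY ES line had 5, 16, 4, 0, 2, 42, 0 and 128 counts for the same list. All 8 rows were below 1 FPKM in both ES lines, with the Hoxb9 row highest, at 0.821 FPKM in the XX line and 0.609 FPKM in the XY line.

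The ES values therefore lay below those of the XX clones for every row and, where ES counts were present, above those of the XY clones. XX clones averaged at least 389-fold (Hoxb3) and at least 688-fold (Hoxb8) the CPM of the XX ES line, where these genes had 0 counts. In FPKM Hoxb3 stood at 0.0369 in that ES line, and its ratio was smaller than the bound in CPM. Against counted ES values the ratio of XX clones over the XX ES line was 186 for Hoxb2 (95% counting interval 94.3 to 430.0), 297 for Hoxb7 (157 to 650.0) and 21.9 for the Hoxb9 row (19.3 to 24.9). In CPM, XY clones were at least 197-fold lower than the XY ES line for the Hoxb9 row and at least 64.7-fold lower for Hoxb7. For the Hoxb9 row, FPKM of 0.609 in that ES line and up to 0.0192 in XY clones gave a smaller ratio of means. The intervals and bounds cover counting error only.

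The fit over both lines, with the ES line as a covariate, takes the NPC change as equal in both. It called 1 of the 8, Hoxb8, as higher in NPC clones (log2 fold change 13.26 ± 1.86, SE, adjusted p = 0.00213), where 33.3% of 14561 genes were called higher and 29.7% lower. The other 7 had fitted changes of both signs, from -4.52 ± 2.29 (SE) for the Hoxb9 row to 7.68 ± 2.69 (SE) for Hoxb5, and none passed. Only 1 ES library stands behind each line, so the spread in these tests is that of the clones.

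Within the XX line alone, a fit chosen after the data had been seen, 5 rows were called higher in NPC clones than in the ES line: Hoxb2 (7.52 ± 0.88, SE, adjusted p = 0.00614), Hoxb3 (13.59 ± 1.2), Hoxb4 (5.63 ± 1.02), Hoxb7 (8.20 ± 1.17) and Hoxb8 (14.41 ± 2.06). There 20.3% of all genes were called higher. In this line cell type and library set coincide, so they cannot be told apart. Hoxb5, Hoxb6 and the Hoxb9 row did not pass (adjusted p = 0.0746, 0.166 and 0.0687).

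Within the XY line alone, 3 rows had enough counts to be fitted, and 2 were called lower in NPC clones than in the ES line: the Hoxb9 row (-10.16 ± 1.06, SE, adjusted p = 0.0167) and Hoxb7 (-8.55 ± 1.42, adjusted p = 0.0371), with 26% of all genes called lower. Hoxb3 was at -7.17 ± 1.77 and did not pass. As the XY clones hold no counts, the 3 rows were fitted through the ES library alone. Lower in NPC clones was thus the only direction they could take.

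The difference between these changes was tested as the interaction of line and cell type. As this takes in the change within the XX line, library set cannot be told apart from the interaction either. Hoxb3 passed, with a change 20.77 ± 1.48 (SE) log2 units higher in the XX line (adjusted p = 0.0350), in a fit in which 0.0808% of 14848 genes passed in that direction and 0.0202% in the other. Hoxb2 (13.12, adjusted p = 0.0531), Hoxb7 (16.85, adjusted p = 0.0553), Hoxb4 (10.91, adjusted p = 0.0920), the Hoxb9 row (14.70, adjusted p = 0.140) and Hoxb6 (9.23, adjusted p = 0.450) had the same sign and did not pass. Hoxb5 and Hoxb8, at 0 in both ES lines and the XY clones, were fitted at 8.85 and 14.33 and did not pass (adjusted p = 0.9999 each). As only the XX clones hold counts of this pair, these values rest on the prior count. As Hoxb3 had no counts in the XX ES line or the XY clones, its fitted value and SE depend on the prior count. The Hoxb3 call was lost without any 1 of the XX clones, and without mC3 or mE6 (adjusted p up to 0.0769). Without C2, Hoxb7 was called instead (adjusted p = 0.0414).

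The 11 fibroblast markers summed to 57.8 and 121 FPKM in the XX and XY ES lines, which were grown on fibroblasts, against 24.7 to 72.4 FPKM in NPC clones, and none of the 11 was at 0 in both ES lines. Their part in the ES counts of HoxB genes was not tested.

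The XX clones did not share 1 HoxB level. Clone C2 had the lowest CPM of the 4 XX clones for 7 of the 8 rows, and for the Hoxb9 row it had the highest. Among all genes tested, 18.1% had their lowest XX clone in C2. Clone E1.2 was highest for 5 rows and G4 for 2. Of the same genes, 27.8% had their highest XX clone in E1.2 and 18.7% in C2.

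The median ratio of the highest to the lowest XX clone was 3.55 for the HoxB rows (from 2.13 to 26.5), and 1.64 for all genes with counts in the 4 clones. Relative to the mean of the XX clones, C2 stood at 0.082 for Hoxb6 and 2.13 for the Hoxb9 row, and E1.2 at 2.17 for Hoxb6 and 0.739 for the Hoxb9 row. The lowest relative levels of clones 129 and C2 from Hoxb8 to Hoxb2 fell on Hoxb5 and Hoxb6. In clone 129 the Hoxb9 row was lower still, at 0.253 against 0.327 for Hoxb5 and 0.324 for Hoxb6. Each clone is 1 library, so these differences have no replicate error.

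**Figure D4:**
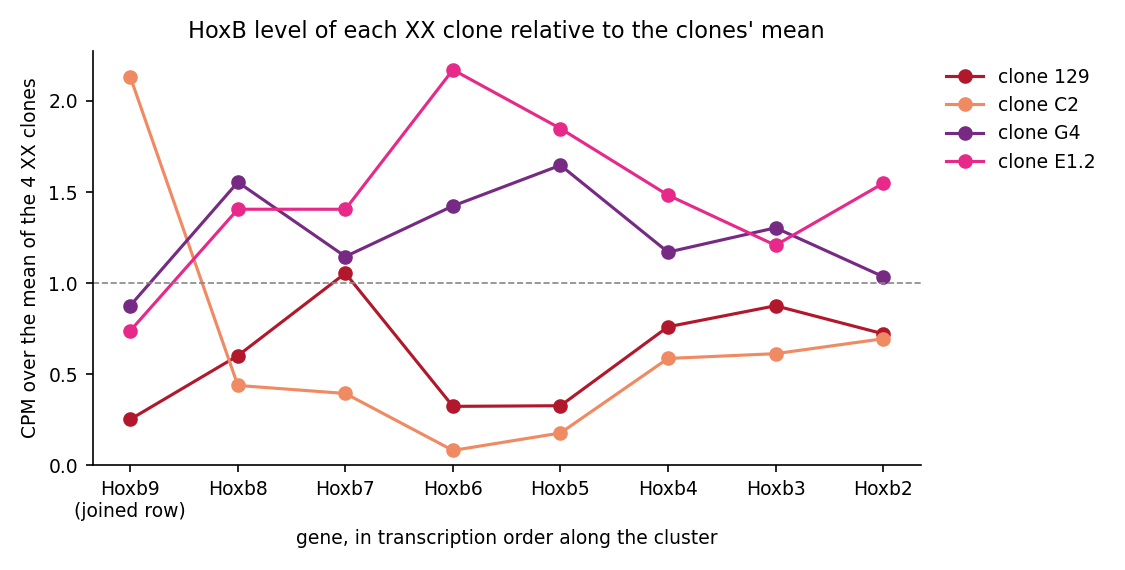
CPM of each HoxB row in each XX NPC clone divided by the mean of the 4 XX clones, in the order of the genes, with a dashed line at the mean. C2 is below the mean for every row but Hoxb9 (2.13), and E1.2 is above it for every row but Hoxb9 (0.739).

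Allele use was read in the XX clones, since XY clones hold no HoxB counts and no comparison of shares between XX and XY clones can be made. Both strain copies of the cluster were transcribed. Of 30 values of a row in an XX clone with at least 20 counts, none was monoallelic (at least 85% from 1 allele, exact binomial test adjusted within the library), 25 were biallelic (at most 70% from 1 allele) and 5 lay between. Over all autosomal genes of these clones 7.18% of values were monoallelic and 85.1% biallelic.

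The share from the 129 allele is given for each row by clone. For Hoxb2 it was 38.7%, 45.7%, 43.3% and 51.4% in clones 129, C2, G4 and E1.2. For Hoxb3 it was 42.1%, 49.1%, 47.8% and 59.9%, and for Hoxb7 42.7%, 48.3%, 47.2% and 54.2%. In each of the 3 genes clone 129 had the lowest share and E1.2 the highest.

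Hoxb4 had a 129 share of 42.2%, 40.2%, 40.8% and 58.8% in the same clones, and Hoxb8 one of 46.6%, 48.4%, 45.8% and 56.5%. In both, E1.2 stood above the other three clones. For Hoxb6 the share was 22.0% in clone 129 (exact 95% interval 12.3 to 34.7, from 59 counts), 63.6% in C2 (40.7 to 82.8, from 22 counts), 39.9% in G4 and 67.1% in E1.2.

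Hoxb5 could be read in 2 clones, at 27.3% in G4 (exact 95% interval 19.2 to 36.6) and 76.1% in E1.2 (68.2 to 82.8). The Hoxb9 row departed from this order, with 48.3%, 57.4%, 80.4% and 71.4% in clones 129, C2, G4 and E1.2. Separate shares of Hoxb9 and Gm53 cannot be read from the joined row.

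The 129 share was above 50% in E1.2 for 8 of 8 rows and in clone 129 for 0 of 7 with enough counts, while the median autosomal gene stood at 50% in E1.2 and 49.99% in clone 129. Of 7 rows readable in all 4 XX clones, 6 had their highest share in E1.2, against 23.9% of all such autosomal genes. The median range over the XX clones was 17.7 points for these 7 rows and 7.01 points over 11618 genes. The 8 rows are neighbours on 1 chromosome and are not independent of each other.

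Heterogeneity of the share among clones was tested by a chi-square over clones divided by an overdispersion that follows depth, adjusted over 12882 autosomal genes, of which 19% were called. On simulated data this test made more false calls among its calls than its threshold implies, so an adjusted p near the threshold is less firm than it reads. It called 2 of the 7 testable rows, Hoxb3 (adjusted p = 0.0213) and the Hoxb9 row (adjusted p = 1.96e-17). Hoxb6 (0.0599), Hoxb8 (0.0649), Hoxb7 (0.108), Hoxb2 (0.268) and Hoxb4 (0.834) had larger adjusted p-values and were not called. Over the XX clones alone, where 13.1% of genes were called, the same 2 rows passed. Without E1.2 the adjusted p of Hoxb3 was 0.98, and without clone 129 it was 0.0522, while the Hoxb9 row stayed called without any 1 clone. Without C2, 4 rows were called, Hoxb6 and Hoxb8 with them, and the share of all genes called in that run is not given here.

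**Figure D5:**
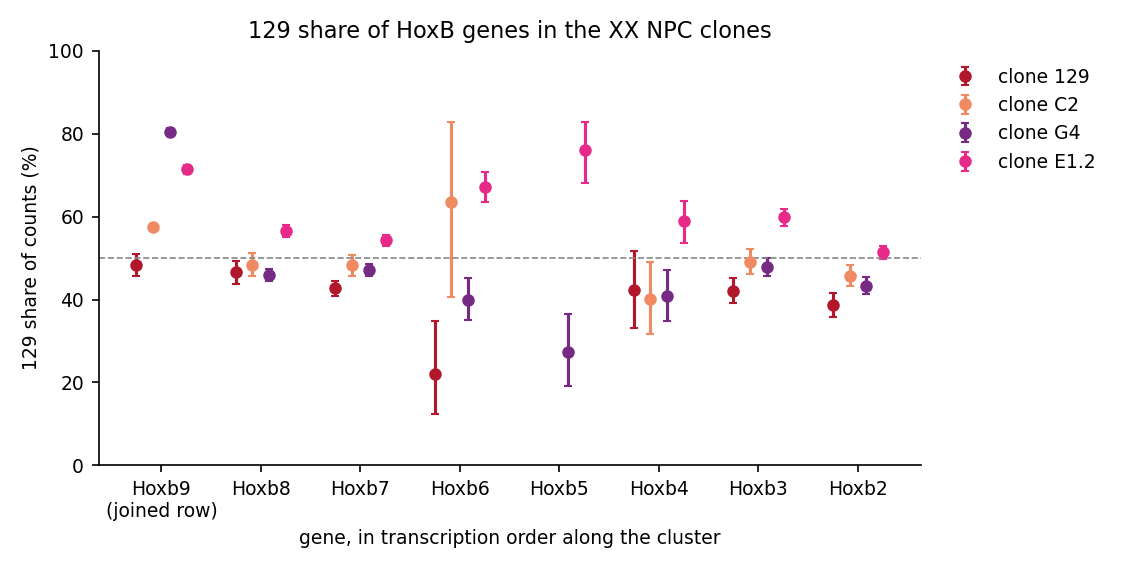
129 share of the counts of each HoxB row in each XX NPC clone with at least 20 counts, with exact 95% binomial intervals (counting error only) and a dashed line at 50%. Clone E1.2 lies above 50% for every row, from 51.4% to 76.1%.

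In the ES lines 3 values had at least 20 counts. The Hoxb9 row had a 129 share of 69.0% in the XX ES line (exact 95% interval 62.8 to 74.7, 245 counts) and 89.8% in the XY ES line (83.3 to 94.5, 128 counts), and Hoxb7 one of 100% in the XY ES line (91.6 to 100, 42 counts). Both XY ES values were called monoallelic, where 5.12% of autosomal genes of that library were, and the XX ES value was not, with 5.87% of genes called there. Under the count minimum, values went both ways. In the XY ES line Hoxb3 had 16 of 16 counts from 129, Hoxb2 4 of 5, Hoxb6 2 of 2 and Hoxb4 1 of 4. In the XX ES line Hoxb2 had 8 of 8, Hoxb6 6 of 6, Hoxb4 3 of 3 and Hoxb7 1 of 9. The strain of the fibroblast layer is not given in the sources used here.

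The other genes of the HoxB regulatory setting were read from lists. TALE cofactors are homeodomain partners of Hox proteins, and of the 11 genes listed, 6 were called higher and 2 lower in NPC clones than in ES lines, with a median log2 fold change of 0.731. Over all genes, to be set beside this list and those that follow, 33.3% were called higher and 29.7% lower, with a median of 0.113. Among those called were Meis1 (6.33), Meis2 (4.50) and Tgif1 (-3.55). None of the 11 was called between XX and XY clones. All 11 had counts in both sets of clones.

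Of the list of Cdx and hindbrain regulators of Hox genes, 5 were in the table, and none of them was a Cdx gene. All 5 were called higher in NPC clones than in ES lines: Zic1 (8.32), Nr2f1 (7.97), Nr2f2 (7.85), Egr2 (5.59) and Gbx2 (2.08). Egr2, known as Krox20, activates Hoxb2 in the hindbrain. It averaged 4.36 ± 2.60 CPM in XX clones and 3.19 ± 1.02 CPM in XY clones (SD, n = 4 each). Zic1 stood at 0.0739, 0, 0.00424 and 1.53 FPKM in the XX clones (129, C2, G4, E1.2 in turn) and between 16.5 and 22.3 FPKM in XY clones, against 0.0366 FPKM in the XX ES line and 0.0403 FPKM in the XY one. Its higher level in NPC clones was thus that of the XY clones and E1.2. None of the 5 was called between XX and XY clones (adjusted p = 0.109 for Zic1), and the median log2 fold change of NPC over ES was 7.85.

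Of 14 genes of the retinoic acid pathway in the table, 3 were called higher and 5 lower in NPC clones than in ES lines, with a median log2 fold change of -1.67. The largest changes among them were those of Aldh1a1;E030003E18Rik, which includes a retinaldehyde dehydrogenase (15.50), the receptor Rarb (5.77), the binding protein Crabp1 (-5.41) and the retinol transporter Stra6 (-4.49). Between XX and XY clones none of the 10 tested was called, the Aldh1a1 row included (adjusted p = 0.0805). That row stood at 9.93, 0.859, 7.22 and 34.8 FPKM in the XX clones (129, C2, G4, E1.2 in turn) and between 0.337 and 1.85 FPKM in XY clones, so E1.2 was highest and C2 lay within the XY range.

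Of 29 Polycomb and Trithorax genes, 6 were called higher and 16 lower in NPC clones than in ES lines, with a median log2 fold change of -0.828. Among those called were the Polycomb subunits Cbx7 (-5.82), Bmi1 (4.95) and Cbx8 (4.44). One gene of the list was called between XX and XY clones, Mll2, a histone H3 lysine methyltransferase, at 192 ± 7.31 CPM in XX clones and 116 ± 5.92 CPM in XY clones (SD, n = 4 each, log2 fold change 0.72 ± 0.07, SE, adjusted p = 0.0173).

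Of 19 genes of the other Hox clusters, 13 were called higher and 1 lower in NPC clones than in ES lines, led by Hoxa3 (13.06), Hoxd8 (12.87), Hoxa6 (12.29) and Hoxa7 (10.79), and the median was 7.55. Hoxa3, a hindbrain gene of the same paralogue group as Hoxb3, stood at 11.2, 5.55, 4.90 and 7.78 FPKM in the XX clones (129, C2, G4, E1.2 in turn), and between 10.9 and 13.5 FPKM in XY clones, where Hoxb3 was at 0. In counts its order was the other way, at 20.9 ± 10.0 CPM in XX clones and 5.06 ± 0.677 CPM in XY clones (SD, n = 4 each), and the test on counts did not call it (log2 fold change 2.04, adjusted p = 0.0517). FPKM and counts thus disagree on the direction for Hoxa3. Of 11 forebrain and midbrain position genes, 9 were tested and 4 were called higher in NPC clones than in ES lines: Lhx2 (8.02), Otx1 (6.59), En1 (5.26) and En2 (2.91), with a list median of 4.18. No gene of that list was called between XX and XY clones, and En2 averaged 2.94 ± 3.23 CPM in XX clones and 28.2 ± 11.1 CPM in XY clones (SD, n = 4 each, adjusted p = 0.0723).

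Genes outside the Hox clusters whose level over the 8 NPC clones was most like that of the HoxB rows were sought among 9876 genes by Pearson's r with the mean standardised HoxB profile, as a description without a test. The first 5 were Ndufb11, an X-linked subunit of respiratory complex I (r = 0.988), Ubr2, a ubiquitin ligase (0.982), Ptms, parathymosin (0.980), Ptgfrn, a membrane protein (0.977), and Ttc15 (0.977). Ndufb11 had 111, 120, 131 and 154 CPM in the XX clones (129, C2, G4, E1.2 in turn) and between 59.5 and 65.6 CPM in XY clones. In all, 204 genes reached r of 0.9, and the 8 clones fall into an XX and an XY set that the HoxB profile separates.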

How the data were processed

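Polyadenylated RNA of 8 NPC clones and 2 ES lines had been read as paired ends, 1 library each. Per the submitters' processing notes the authors used TopHat 1.4.0, Cufflinks 1.3.0 and SAMtools with mouse build mm9. The deposited table gives counts per gene, with the share from the 129 allele, as the authors made them, per the file headers. Count times share lay within 0.01 of a whole number in 100.0% of autosomal values. The counts were therefore taken as those informative for the allele, which the headers do not say. The deposited FPKM values were made by the authors and cover the whole transcript. What a count stands for (reads or variant observations) and whether strand was used are not given in the sources used here. A second library of C2 and one of mC3, Hoxb1 and Hoxb13 were not used here.

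Counts were tested with edgeR 4.0.16 in R 4.3.3 (quasi-likelihood test, TMM factors, filterByExpr, Benjamini-Hochberg over all genes, threshold 0.05). The SE of an edgeR fold change was derived as its absolute value divided by the square root of the F statistic. The alternatives were DESeq2 1.42.0, limma 3.58.1 on log2(FPKM + 1) or log2(FPKM + 0.1), other filters, scalings and samples. Allele shares have exact binomial intervals at 95%, with at least 20 counts. Depth ranged from 61375911 to 119266777 counts. Intervals and the limit of 3 counts for a count of 0 cover counting error only. The tests were checked on simulated data, where the heterogeneity test made more false calls among its calls than its threshold implies. The overdispersion curve of the heterogeneity test was revised after that check, when results of the HoxB rows had been seen, and 2 of 7 rows were called before and after. Members and lists were chosen with earlier results of these data known. Named genes were the 8 rows, up to 4 called genes with the largest change per list, the 3 nearest neighbours on each side and the 5 genes most alike in profile, and some genes that this names are not reported here. Examples of levels between XX and XY clones in lists, and the Hox genes at 0 in XY clones, were chosen after their values were seen. The repeated numbers of clones follow accession order and pair nothing.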

Additional observations from a re-analysis of the deposited data

Results flagged for a closer look

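The 129 share of Hoxb4 in XX clone E1.2 (58.8%) stood apart from those of the other three XX clones (40.2% to 42.2%). Its gap to the nearest clone was 0.888 of the whole range, above the critical value for 4 samples, which chance passes in about 1 in 20 groups. The heterogeneity test did not call Hoxb4 (adjusted p = 0.834).

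The change of Hoxb3 from ES line to NPC clones differed between the XX and the XY line (interaction in edgeR's quasi-likelihood test, adjusted p = 0.035). Hoxb3 had 1021 to 2359 counts in XX clones and 0 in the XX ES line, and 0 in XY clones and 16 in the XY ES line. The direction was the same in all 4 XX clones and all 4 XY clones, but these counts fixed it in advance. An XX clone could only be higher than an ES line at 0, and an XY clone at 0 only lower than its ES line. The call was lost whichever XX clone was left out, and without mC3 or mE6 (adjusted p up to 0.0769 in the same test). Library set cannot be told apart from this difference between the lines.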

How the results depend on the processing

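No paired analysis was possible because the clone numbers follow accession order and the labels tie no XX clone to an XY clone. Between XX and XY clones, 6 HoxB rows were called. All 8 rows kept their direction under every alternative run, which could not turn, as XY clones hold no counts. Leaving out 1 clone gave 2 to 6 called rows, with 0.0506% to 2.34% of all genes called higher. Over all genes DESeq2 called 1127 higher (7.95%) and 805 lower in XX clones, limma on log2(FPKM + 1) called 105 higher and 270 lower, and edgeR called 0.876% higher and 56 lower. NPC against ES depended on the ES line. Of all genes, the main fit called 33.3% higher, DESeq2 35.2% and the fit without the line 32.4%. On log2(FPKM + 1) limma called 34.4% higher, and 31.3% without a filter. Leaving out 1 NPC clone gave 31.8% to 34.6%. Against 1 row called higher, DESeq2 called 0 (and 2 lower), the fit without the line 0, limma on log2(FPKM + 1) 5 and without a filter 3, the XY line alone 0 (and 2 lower), the XX line alone 5, and leaving out 1 library 0 to 5. Without the XX ES line fitted changes were -5.63 (Hoxb2), -7.29 (Hoxb3), -5.32 (Hoxb4), -4.35 (Hoxb6), -8.68 (Hoxb7) and -10.3 (the Hoxb9 row). Signs turned under DESeq2 for Hoxb2 (-3.31) and Hoxb6 (-1.62). For Hoxb3, Hoxb4, Hoxb7 and the Hoxb9 row they turned without the line (6.23, 4.45, 5.76 and 3.87), on log2(FPKM + 1) with or without a filter (1.56, 1.15, 1.88 and 1.29), on log2(FPKM + 0.1) (2.52, 2.14, 2.52 and 0.738) and in the XX line alone (13.6, 5.63, 8.2 and 4.45). Leaving out 1 library gave -5.63 to 7.54 for Hoxb2, -7.29 to 13.5 for Hoxb3, -5.32 to 5.65 for Hoxb4, -4.35 to 4.93 for Hoxb6, -8.68 to 8.22 for Hoxb7 and -10.3 to 4.47 for the Hoxb9 row, and an ES line left out turned each sign. The cause was not tested. For the interaction DESeq2 called 6 rows and leaving out 1 clone 0 to 1, against 1, and over all genes it called 365 higher and 197 lower, against 12 and 3. Heterogeneity called 1 to 4 rows with 1 clone left out, against 2, and the shares of all genes called in those runs are not given here. Monoallelic calls, 2 of 33 values, were 1 at a share of at least 95%, 1 at a minimum of 50 counts, 1 at 100, 3 at a share of at least 80% and 3 at a minimum of 10 counts. Alternatives on shares between XX and XY clones were not run, since XY clones hold no counts. Low counts limit Hoxb5 and Hoxb6 in clones 129 and C2 and all rows in ES lines.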

Other observations

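Other cell type markers in the table were read beside the HoxB levels. Of the 8 neuron markers listed there, 1 was called higher and 2 lower in NPC clones than in ES lines, of 6 astrocyte markers 3 were called higher, and of 5 oligodendrocyte markers 1 was called higher and 1 lower. The neuron markers summed to between 13.4 and 51.9 FPKM in XX clones and between 20 and 69.3 FPKM in XY clones, and the oligodendrocyte markers to between 20.7 and 36.3 FPKM in XX clones and between 27.6 and 69.1 FPKM in XY clones. No gene of these 3 lists was called between XX and XY clones.

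Of the neural progenitor markers, 12 were called higher and 1 lower in NPC clones than in ES lines, and all 5 pluripotency markers were called lower. Of the fibroblast markers 1 was called higher and 4 lower, of the endoderm markers 1 lower and of the mesoderm and neural crest markers 2 lower. Nkx6-1, a homeodomain factor of the ventral hindbrain and spinal cord and 1 of the listed neural progenitor markers, stood at 1.46, 2.09, 9.57 and 0.129 FPKM in the XX clones (129, C2, G4, E1.2 in turn) and at 0 in XY clones, against 0.0647 and 0.138 FPKM in the XX and XY ES lines. It was highest in G4 and at the ES level in E1.2, and the test between XX and XY clones did not call it (edgeR, adjusted p = 0.0802).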
